A study of Sus scrofa with 12 samples.

Results

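Aminoacyl-tRNA synthetases are the enzymes that join each amino acid to its tRNA. The genes described here are 35 listed by name, 19 for cytosolic and 16 for mitochondrial enzymes, and 34 of them were found by that name among the 18060 genes of the expression table. FARSB, the beta subunit of cytosolic phenylalanyl-tRNA synthetase, was not analysed here, which leaves 18 cytosolic and 16 mitochondrial genes.

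Granulosa cells line the ovarian follicle and nourish the oocyte; those used here were primary cells taken from antral follicles of adult crossbred sows and grown in serum-containing DMEM/F-12. One group was kept for 12 h in normoxia (21% O2, 5% CO2, 74% N2) and the other for 12 h in hypoxia (1% O2, 5% CO2, 94% N2), with 3 biological replicates each. Methylated RNA immunoprecipitation sequencing (MeRIP-seq) split each replicate's fragmented mRNA into an untreated input library and an IP library, pulled down with an antibody to N6-methyladenosine (m6A), a modified adenosine common in mRNA. These 12 libraries carry 1 batch label. No source used here says whether each replicate is another sow, so p-values measure the spread between these samples, which may be technical.

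In animal cells the cytosolic synthetases supply translation of nuclear genes, and a separate nuclear-encoded set, most with names ending in 2, is imported to charge tRNAs for translation of the mitochondrial genome. GARS1 and KARS1 serve both compartments from 1 gene each, and mitochondrial glutaminyl-tRNA is made by an amidotransferase rather than by a synthetase. Several cytosolic synthetases are held with scaffold proteins in the multisynthetase complex. Many cytosolic synthetase genes are known targets of ATF4, the transcription factor of the amino acid response.

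RNA levels are given as FPKM (fragments scaled to transcript length and library size), so levels may be compared between genes. Summed over all genes, the libraries held 294929 to 326804 FPKM, and the sequencing depth behind them is unknown. Of 13 granulosa cell markers, 10 reached 1 FPKM in a library, among them FSHR, FOXL2, INHA and NR5A1, while AMH, CYP19A1 and HSD17B1 stayed below 1 FPKM in every library. Summed markers of endothelial cells were 6.82 to 7.14 FPKM in normoxia and 3.29 to 3.39 in hypoxia, and those of leukocytes 1.04 to 2.14 and 1.66 to 5.00. Those of theca cells were 9.10 to 14.5 and 12.0 to 27.8, and those of oocytes 1.12 to 1.41 and 0.560 to 1.33. The endothelial sum was mostly PECAM1 (means of 6.56 and 2.81 FPKM), while VWF, KDR and TIE1 stayed below 1 FPKM in every library. The theca sum was mostly PDGFRB, at 10.9, 10.7 and 27.0 FPKM in the hypoxia libraries. Of the other theca markers, LHCGR (0.519 and 0.0646) and PTCH1 (1.39 and 0.903) had lower means in hypoxia and INSL3 (0.0428 and 0.124) a higher one. Markers of fibroblasts and smooth muscle summed to 7551 to 9337 and 3852 to 4874, nearly all of it ACTA2, with means of 7642 and 3477 FPKM. Of the other markers on that list, DES (means of 4.07 and 2.22 FPKM) and MYH11 (76.8 and 46.6) were also lower in hypoxia. PDGFRA (4.33 and 8.50) and COL1A1 (184 and 286) were higher. Differences were smaller for DCN (231 and 198), LUM (6.97 and 5.74) and COL3A1 (308 and 325). The part of other cells in the results below was not tested, and in bulk RNA fewer cells of a type cannot be told apart from less RNA per cell.

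The median log2 fold change of the 10196 genes tested (hypoxia over normoxia, on log2(FPKM + 1)) was -0.26, and scaling each library by its median ratio raised it by 0.25 to -0.02. Hypoxia library 3 stood apart: it correlated with hypoxia libraries 1 and 2 at r = 0.956 and 0.915, against 0.985 between those 2 and 0.982 to 0.991 within normoxia. It was the lowest hypoxia library for 14 of 18 cytosolic and 7 of 16 mitochondrial synthetases, and for 55.5% of all genes tested. Its median log2 difference from hypoxia libraries 1 and 2 was 0.11 over the shortest genes by genomic span, -0.22 over those of middle span and -0.57 over the longest, in groups of 3399, 3398 and 3399 genes. Normoxia library 3 differed from normoxia libraries 1 and 2 in the same order but by less, at 0.008, -0.08 and -0.13. The difference of hypoxia library 3 was -0.55 over the cytosolic synthetases and 0.00 over the 14 mitochondrial synthetases tested. For normoxia library 3 it was -0.05 and -0.11. The part of either library in each result was not tested beyond the fits that leave it out.

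The cytosolic synthetases as a class had lower RNA levels in hypoxia. Their FPKM summed to 1034, 1002 and 978 in the 3 normoxia libraries and to 614, 604 and 479 in the 3 hypoxia libraries. Of the 18, 13 fell by limma at an adjusted p under 0.05 and 0 rose, where 21.1% of all genes tested fell and 5.4% rose. At an unadjusted p under 0.05 the counts were also 13 and 0. The same 13 had all 3 hypoxia libraries below all 3 normoxia libraries, as did 34.9% of all genes tested, and 0 had them all above, as did 9.25%. The median log2 fold change of the class was -1.21, or -0.95 relative to the median of all genes tested. After median-ratio scaling 11 of the 18 fell and 0 rose, where 8.07% of all genes fell and 6.64% rose, and the median was -0.94. The count was 13 without hypoxia library 3, 8 without normoxia library 2 and 9 without normoxia library 1 or 3.

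**Figure D1:**
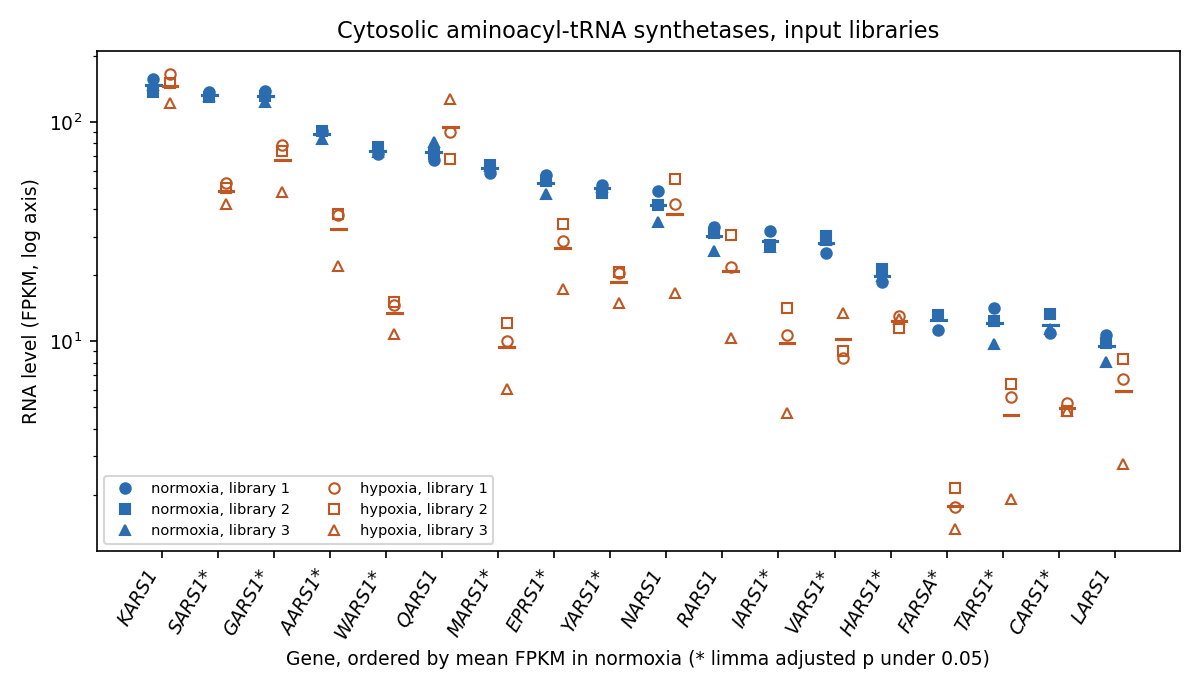
RNA level in FPKM (log axis) of 18 cytosolic synthetases in each of 3 normoxia (filled) and 3 hypoxia (open) input libraries, with a bar at each mean. Genes run from the highest mean in normoxia (KARS1, 147 FPKM) to the lowest (LARS1, 9.53), and an asterisk marks the 13 past a limma adjusted p of 0.05.

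In normoxia the most abundant cytosolic synthetase transcripts were those of KARS1 (147 ± 10.2 FPKM, mean ± SD over 3 libraries here and below), SARS1 (133 ± 3.68) and GARS1 (131 ± 8.13). The ranges of SARS1 and GARS1 overlapped each other and that of KARS1. The lowest were those of TARS1 (12.1 ± 2.22), CARS1 (11.9 ± 1.30) and LARS1 (9.53 ± 1.37), and all 18 lay above 6.68 FPKM, the median of all genes tested. In hypoxia KARS1 (146 ± 22.5) and QARS1 (95.3 ± 30.2) headed the order, and FARSA, at 1.77 ± 0.372 FPKM, was the lowest. Across the 18 genes the normoxia level and the log2 fold change had a rank correlation of 0.0031, given as a description.

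Of the cytosolic enzymes that are members of the multisynthetase complex, 7 were measured and 3 of these fell, with a median log2 fold change of -0.69. MARS1, whose product charges both the initiator and the elongator methionine tRNA, had the most negative log2 fold change of the 32 synthetases tested at the pseudocount of 1 FPKM; at 0.1 it was -2.76, and FARSA had -2.78. Its levels were 58.6, 63.7 and 62.7 FPKM in normoxia and 10.0002, 12.1 and 6.05 in hypoxia. Every hypoxia library lay far below every normoxia library, with library 3 the lowest. MARS1 fell by 2.64 on the log2 scale (SE 0.236, adjusted p = 0.000738), a 6.56-fold lower mean FPKM, and its call held without each library in turn. The MARS1 gene overlaps ARHGAP9 over 9676 bases and DDIT3 over 57 bases on the opposite strand. The libraries mark strand, but no source used here says whether the deposited values used it, so reads of these genes may not have been told apart; ARHGAP9 had 0.435 and 0.168 FPKM in the 2 conditions.

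IARS1, the isoleucyl enzyme of the complex, had 31.9, 27.5 and 26.9 FPKM in normoxia and 10.7, 14.2 and 4.72 in hypoxia. Library 3 was again the lowest, at less than either of the other hypoxia libraries, and the conditions did not overlap. IARS1 fell by 1.56 (SE 0.345, adjusted p = 0.0164). That call was lost without normoxia library 1 (adjusted p = 0.067), 2 (0.067) or 3 (0.0548). EPRS1, the fused enzyme for glutamate and proline, had 57.0, 53.9 and 47.2 FPKM in normoxia and 28.6, 34.2 and 17.3 in hypoxia, also with no overlap and library 3 lowest. EPRS1 fell by 1.00 (SE 0.251, adjusted p = 0.0257). Its call was lost without hypoxia library 1 (adjusted p = 0.0688) and without normoxia library 1 (0.0956), 2 (0.102) or 3 (0.0655), and it stood at 0.0501 after median-ratio scaling and at 0.0518 with no filter on low values.

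The other members of the complex did not pass the test. KARS1, the lysyl enzyme of both compartments, had 157, 136 and 147 FPKM in normoxia and 166, 150 and 122 in hypoxia, and the ranges overlapped. Its log2 fold change was -0.02 with a 95% interval from -0.38 to 0.35 (adjusted p = 0.961), and it turned positive after median-ratio scaling (0.30) and when hypoxia library 3 (0.11) or normoxia library 1 (0.03) was left out. KARS1 overlaps TERF2IP, at 13.3 and 14.6 FPKM, over 878 bases on the opposite strand. QARS1, the glutaminyl enzyme, had 67.2, 71.2 and 81.0 FPKM in normoxia and 90.3, 67.9 and 128 in hypoxia. It was the only cytosolic member with a positive fitted value, 0.33 (interval -0.22 to 0.89, adjusted p = 0.347), and library 3 was the highest hypoxia library rather than the lowest. The value was 0.10 without hypoxia library 3 and 0.55 without hypoxia library 2. LARS1, which besides charging leucine tRNA acts as a leucine sensor upstream of mTORC1, had 9.53 ± 1.37 and 5.93 ± 2.85 FPKM (log2 fold change -0.69, adjusted p = 0.18). RARS1, the arginyl enzyme, had 30.1 ± 3.84 and 20.9 ± 10.2 FPKM (-0.62, adjusted p = 0.254). In both, hypoxia library 3 was the lowest, at 2.77 FPKM for LARS1 and 10.3 for RARS1, and hypoxia library 2 was the highest, at 8.29 and 30.6. Without hypoxia library 3 the log2 fold changes were -0.30 for LARS1 and -0.21 for RARS1, and without hypoxia library 2 they were -0.96 and -0.95.

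Outside the complex, 10 of 11 measured cytosolic synthetases fell, with a median log2 fold change of -1.38. The difference from the members of the complex was not tested. WARS1, the tryptophanyl enzyme, had 71.7, 76.7 and 73.2 FPKM in normoxia and 14.6, 15.0 and 10.8 in hypoxia. FARSA, the alpha subunit of the phenylalanyl enzyme, had 11.3, 13.2 and 13.1 FPKM in normoxia and 1.76, 2.14 and 1.40 in hypoxia. For both genes the hypoxia libraries were close together and well separated from normoxia. WARS1 fell by 2.38 (SE 0.162, adjusted p = 0.00025), a 5.48-fold lower mean. FARSA fell by 2.30 (SE 0.17, adjusted p = 0.000348), a 7.10-fold lower mean FPKM, since the log2(FPKM + 1) scale understates the change of a transcript this low.

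A group of 4 enzymes fell by 1.38 to 1.45. AARS1, the alanyl enzyme, had 90.8, 90.7 and 83.5 FPKM in normoxia and 37.8, 37.9 and 22.0 in hypoxia. SARS1, which charges serine tRNA and also the tRNA for selenocysteine, had 137, 130 and 131 FPKM in normoxia and 52.8, 49.9 and 42.4 in hypoxia. These were among the most abundant transcripts of the class, and the conditions did not overlap for either. VARS1, the valyl enzyme, had 25.2, 30.3 and 29.0 FPKM in normoxia and 8.39, 9.06 and 13.4 in hypoxia. YARS1, the tyrosyl enzyme, had 51.4, 47.6 and 50.5 FPKM in normoxia and 20.4, 20.7 and 14.9 in hypoxia. Hypoxia library 3 was the lowest for AARS1, SARS1 and YARS1 and the highest for VARS1. The fitted changes were -1.45 for AARS1 (SE 0.225, adjusted p = 0.00476), -1.44 for SARS1 (SE 0.138, adjusted p = 0.000792), -1.39 for VARS1 (SE 0.199, adjusted p = 0.00357) and -1.38 for YARS1 (SE 0.165, adjusted p = 0.00169). All of these calls, with those of WARS1 and FARSA, held when each library was left out and after median-ratio scaling.

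The other enzymes outside the complex had smaller or less even changes. CARS1, the cysteinyl enzyme, had 10.9, 13.3 and 11.3 FPKM in normoxia and 5.24, 4.79 and 4.79 in hypoxia and fell by 1.11 (SE 0.148, adjusted p = 0.00258), a call that held without each library in turn. TARS1, the threonyl enzyme, had 14.1, 12.4 and 9.70 FPKM in normoxia and 5.58, 6.41 and 1.91 in hypoxia and fell by 1.31 (SE 0.362, adjusted p = 0.0363). Library 3 was the lowest in both conditions for TARS1. That call was lost without hypoxia library 1 (adjusted p = 0.0701) and without normoxia library 1 (0.127), 2 (0.127) or 3 (0.0729), and with no filter on low values (0.0738). GARS1, the glycyl enzyme of both compartments, had 139, 132 and 123 FPKM in normoxia and 78.1, 74.1 and 48.0 in hypoxia and fell by 0.99 (SE 0.205, adjusted p = 0.0128). The GARS1 call was lost without normoxia library 1 (0.0575) or 2 (0.063).

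HARS1, the histidyl enzyme, had 18.6, 21.3 and 19.9 FPKM in normoxia and 13.0, 11.5 and 12.6 in hypoxia. The conditions did not overlap and the hypoxia libraries were close together. HARS1 fell by 0.65 (SE 0.139, adjusted p = 0.0139), the smallest called change among cytosolic enzymes. That call was lost after median-ratio scaling (-0.35, adjusted p = 0.281) and without hypoxia library 1 (0.0524) or normoxia library 2 (0.084) or 3 (0.0665). NARS1, the asparaginyl enzyme, was the only one outside the complex that did not pass: it had 48.5, 41.9 and 34.9 FPKM in normoxia and 42.2, 55.2 and 16.6 in hypoxia. Its hypoxia libraries held both the highest and the lowest value of the 6, and the log2 fold change was -0.28 (interval -1.25 to 0.69, adjusted p = 0.673), or 0.22 without hypoxia library 3 and 0.03 after median-ratio scaling.

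By catalytic fold, which divides the synthetases into class I and class II, 6 of 9 class I and 6 of 8 class II cytosolic enzymes fell, EPRS1 being left out since it holds a domain of each. The medians were -1.38 and -1.15.

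**Figure D2:**
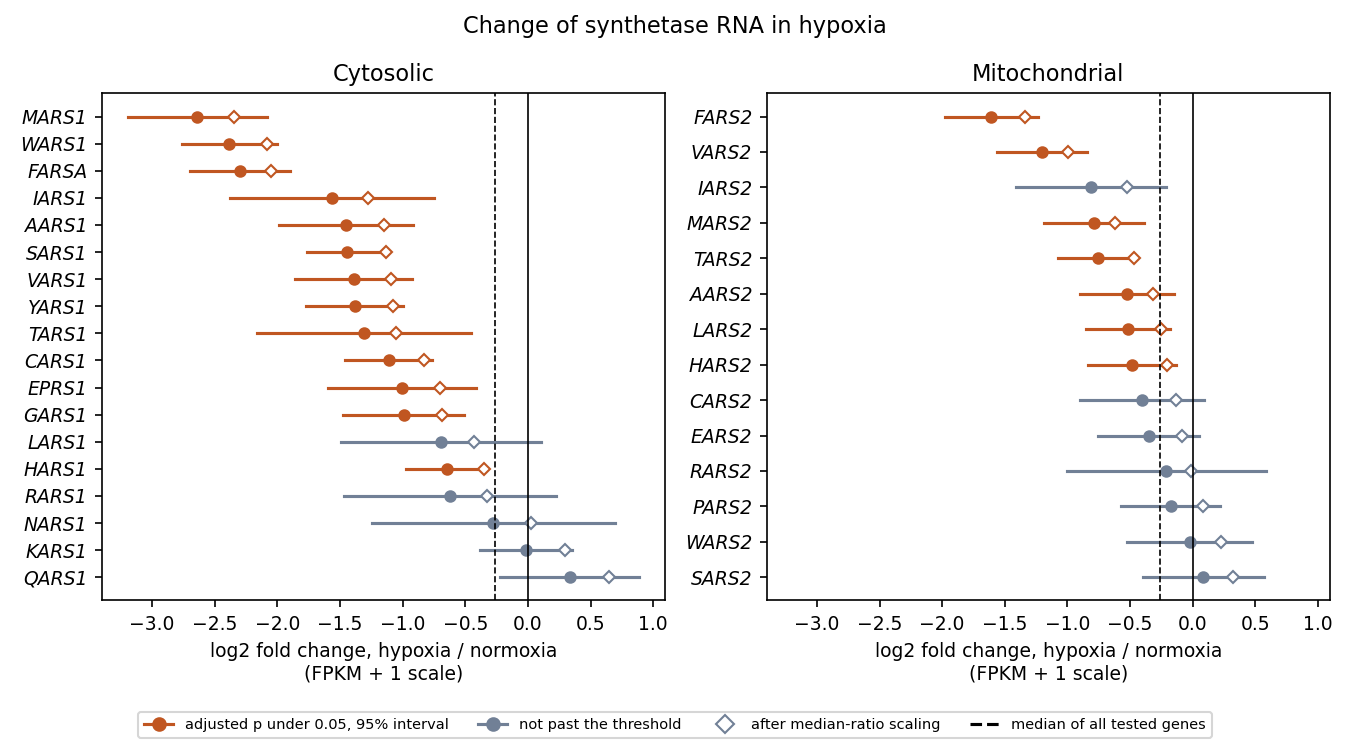
Log2 fold change (hypoxia over normoxia, log2(FPKM + 1)) of the 32 synthetases tested, as filled points with 95% limma intervals, and after median-ratio scaling as open diamonds; the dashed line is the median of all genes tested, -0.26. Of the cytosolic genes 13 of 18 passed the threshold (orange) and of the mitochondrial genes 7 of 14, all on the lower side.

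Mitochondrial synthetase transcripts were lower in level, and fewer of them passed the test. Their FPKM summed to 94.6, 96.5 and 88.1 in normoxia and to 58.2, 58.9 and 53.4 in hypoxia. Of the 16, 14 reached the minimum of 1 FPKM in 3 libraries, and 7 of these fell and 0 rose, against the 21.1% and 5.4% of all genes tested. At an unadjusted p under 0.05 the counts were 8 and 0. All 3 hypoxia libraries lay below all 3 normoxia libraries for 9 of the 14, against 34.9% of all genes. The median log2 fold change was -0.50, or -0.24 relative to all genes tested, and after median-ratio scaling it was -0.23 with 3 of 14 lower, against 8.07%. The count was 3 without hypoxia library 1 and without normoxia library 1 or 2, 4 without normoxia library 3, and 10 without hypoxia library 3. No test of the difference between the cytosolic and mitochondrial classes was made.

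**Figure D3:**
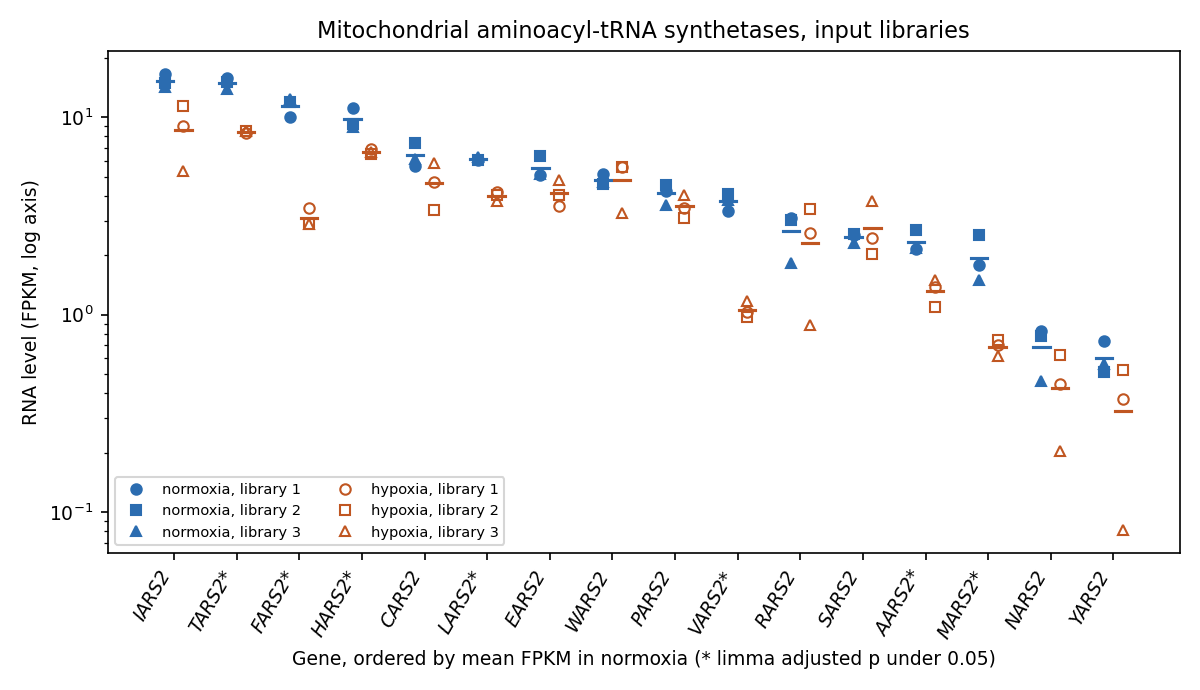
RNA level in FPKM (log axis) of 16 mitochondrial synthetases in each of 3 normoxia (filled) and 3 hypoxia (open) input libraries, with a bar at each mean. Means in normoxia run from 15.3 FPKM (IARS2) to 0.602 (YARS2), and an asterisk marks the 7 past a limma adjusted p of 0.05.

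FARS2, the single-chain mitochondrial phenylalanyl enzyme, had 10.05, 11.9 and 12.3 FPKM in normoxia and 3.47, 2.87 and 2.88 in hypoxia. VARS2, the valyl enzyme, had 3.36, 4.07 and 3.82 FPKM in normoxia and 1.03, 0.968 and 1.17 in hypoxia. Both were well separated between conditions, with hypoxia means 3.72-fold and 3.55-fold lower. FARS2 fell by 1.61 on the log2 scale (SE 0.158, adjusted p = 0.000862) and VARS2 by 1.21 (SE 0.153, adjusted p = 0.00216), and both calls held without each library in turn and after scaling. MARS2, the methionyl enzyme, had 1.79, 2.55 and 1.51 FPKM in normoxia and 0.703, 0.741 and 0.621 in hypoxia. MARS2 fell by 0.79 (SE 0.171, adjusted p = 0.0146), with the pseudocount of 1 FPKM larger than its hypoxia level, and the ratio of the means was 2.83-fold. Its call was lost without hypoxia library 1 (adjusted p = 0.0665) and without normoxia library 1 (0.0533) or 2 (0.066).

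TARS2, the threonyl enzyme, had 15.9, 15.1 and 14.0 FPKM in normoxia and 8.31, 8.54 and 8.50 in hypoxia (mean 8.45, SD 0.121), with the hypoxia libraries close together and below all normoxia libraries. It fell by 0.76 (SE 0.135, adjusted p = 0.00714), which held without each library in turn but not after median-ratio scaling (-0.47, adjusted p = 0.123). The other 3 called genes had small changes that rested on several libraries. AARS2, the alanyl enzyme, had 2.16, 2.69 and 2.19 FPKM in normoxia and 1.38, 1.09 and 1.503 in hypoxia and fell by 0.52 (SE 0.159, adjusted p = 0.0481). LARS2, the leucyl enzyme, had 6.05, 6.10 and 6.33 FPKM in normoxia and 4.17, 4.06 and 3.78 in hypoxia and fell by 0.52 (SE 0.143, adjusted p = 0.035). HARS2, the histidyl enzyme, had 11.2, 9.27 and 8.93 FPKM in normoxia and 6.88, 6.50 and 6.64 in hypoxia and fell by 0.49 (SE 0.15, adjusted p = 0.0495). None of these 3 ranges overlapped between conditions.

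After median-ratio scaling the adjusted p was 0.303 for AARS2, 0.356 for LARS2 and 0.511 for HARS2. Leaving out hypoxia library 1 gave adjusted p-values of 0.144 for AARS2, 0.111 for LARS2 and 0.138 for HARS2. Leaving out hypoxia library 2 gave 0.0947, 0.0565 and 0.0874 in the same order. Without normoxia library 1 they were 0.119, 0.111 and 0.183, without normoxia library 2 they were 0.197, 0.138 and 0.144, and without normoxia library 3 they were 0.12, 0.136 and 0.109. Among the fits that leave out 1 library, the calls of these 3 genes held only without hypoxia library 3. AARS2 overlaps TMEM151B, at 7.97 and 7.22 FPKM, over 6817 bases on the opposite strand.

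Of the mitochondrial genes that did not pass, IARS2, the isoleucyl enzyme, was nearest the threshold. It had 16.7, 15.0 and 14.2 FPKM in normoxia and 9.05, 11.4 and 5.37 in hypoxia, with no overlap, and a log2 fold change of -0.81 (adjusted p = 0.0545). It passed without hypoxia library 2 (adjusted p = 0.0185) or 3 (0.0151), with a log2 fold change of -0.54 in the latter. CARS2, the cysteinyl enzyme, had 6.41 ± 0.880 and 4.67 ± 1.26 FPKM, and EARS2, the glutamyl enzyme, had 5.54 ± 0.694 and 4.14 ± 0.646. Their log2 fold changes were -0.41 (adjusted p = 0.205) and -0.35 (adjusted p = 0.182), and without hypoxia library 3 both passed, at adjusted p = 0.0232 and 0.0421. IARS2 overlaps RAB3GAP2 and CARS2 overlaps NAXD on the opposite strand, over 2392 and 710 bases, and NAXD had 48.4 and 50.3 FPKM.

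The smallest differences were those of WARS2 and SARS2. WARS2, the tryptophanyl enzyme, had 5.14, 4.62 and 4.71 FPKM in normoxia and 5.63, 5.59 and 3.27 in hypoxia, where 2 libraries lay above normoxia and library 3 below it. Its log2 fold change was -0.03 (interval -0.52 to 0.47, adjusted p = 0.948), and 0.18 without hypoxia library 3. SARS2, the seryl enzyme, had 2.55, 2.57 and 2.30 FPKM in normoxia and 2.44, 2.04 and 3.76 in hypoxia, with library 3 here the highest. Its log2 fold change was 0.08 (interval -0.40 to 0.57, adjusted p = 0.811), and -0.10 without hypoxia library 3. PARS2, the prolyl enzyme, had 4.12 ± 0.480 and 3.54 ± 0.487 FPKM (-0.18, adjusted p = 0.5). RARS2, the arginyl enzyme, had 2.64 ± 0.703 and 2.30 ± 1.29 FPKM (-0.21, adjusted p = 0.697, and 0.15 without hypoxia library 3) and overlaps ORC3 over 27910 bases and SLC35A1 over 2305 bases on the opposite strand.

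NARS2 and YARS2, the asparaginyl and tyrosyl enzymes, were too low to test. NARS2 had 0.690 ± 0.199 and 0.424 ± 0.211 FPKM and YARS2 had 0.602 ± 0.116 and 0.325 ± 0.224, and for both the ranges of the conditions overlapped. YARS2 overlaps DNM1L, at 3.74 and 2.29 FPKM, over 14537 bases on the opposite strand.

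Setting the partners for 1 amino acid side by side gave 16 pairs, with EPRS1 serving as partner of both EARS2 and PARS2. The cytosolic transcript was the more abundant in normoxia in 15 pairs; the exception was threonine, with TARS1 at 12.1 and TARS2 at 15.0 FPKM. In hypoxia it was the more abundant in 14, since FARSA, at 1.77 FPKM, then lay below FARS2 at 3.07. The ratio of cytosolic to mitochondrial FPKM ran from 0.805 (threonine) to 82.8 (tyrosine) in normoxia, with a median of 10.4, and the median in hypoxia was 7.00.

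Both partners were tested in 14 pairs. Both fell for alanine, phenylalanine, histidine, methionine, threonine and valine, 6 pairs in all. Only the cytosolic partner passed in 6 pairs (cysteine, glutamate, proline, isoleucine, serine and tryptophan), only the mitochondrial partner for leucine, and neither for arginine. The widest gap was that of tryptophan, where WARS1 kept 18.3% of its normoxia mean and WARS2 had 100.2%. For serine SARS1 kept 36.5% and SARS2 had 111%. For phenylalanine both were low, FARSA at 14.1% and FARS2 at 26.9%. In FPKM the mitochondrial partner kept the larger share of its normoxia mean in 13 of the 14 pairs, the exception being valine, with 36.5% for VARS1 and 28.2% for VARS2. The log2 fold changes of the partners had a Pearson's r of 0.35 and a Spearman's rho of 0.35 over 14 pairs, given as a description, as all values come from the same 6 libraries and 1 gene enters 2 pairs.

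**Figure D4:**
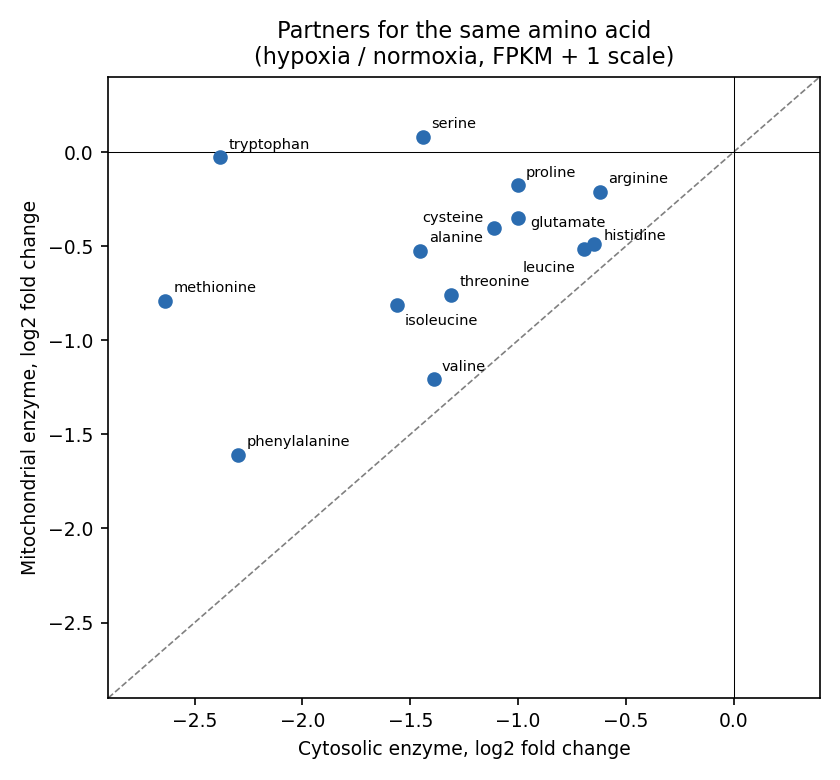
Log2 fold change (hypoxia over normoxia, log2(FPKM + 1)) of the cytosolic enzyme (x axis) against that of the mitochondrial enzyme for the same amino acid (y axis), 1 point for each of 14 pairs; the dashed line marks equal values. The points lie above the line, on a scale that understates the change of low transcripts; tryptophan is farthest from it and valine, leucine and histidine are among the nearest.

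HARS1 and HARS2 lie head to head on chromosome 2 of the pig genome (build Sscrofa11.1, per the submitters' processing notes), with 119 bases between the annotated genes. Their log2 fold changes were -0.65 and -0.49, and both calls were lost after scaling. On opposite strands of chromosome 10, 37263 bases from IARS2 (-0.81), EPRS1 fell by 1.00. VARS1 and VARS2, 469698 bases apart on chromosome 7, had -1.39 and -1.21. AARS1 and KARS1, 1224581 bases apart on chromosome 6, had -1.45 and -0.02, so that neighbours in the genome did not always have like values.

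The authors' deposited table of expression differences marks 10 of the 18 cytosolic genes as significantly lower and 0 as higher, where it marks 8.72% of its genes lower and 4.75% higher. A q-value under 0.05 on the lower side was given to 12 cytosolic genes in the authors' deposited table, which are the 13 above without HARS1 (authors' log2 fold change -0.69, q-value 0.305). For MARS1 the authors' deposited table gives -2.71, for FARSA -2.83 and for WARS1 -2.45. Of the mitochondrial genes, FARS2, MARS2 and VARS2 are marked lower in the authors' deposited table and 0 are marked higher. Their values in the authors' deposited table are -1.90, -1.50 and -1.83.

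Other genes of tRNA charging and maturation were read from a list of 25, chosen with earlier results known, of which 22 were in the table and 19 were tested. Of these, 6 fell and 1 rose, against 21.1% and 5.4% of all genes tested, and the median log2 fold change was -0.46. After median-ratio scaling 4 were lower and 1 higher, against 8.07% and 6.64%. Of the scaffolds of the multisynthetase complex, AIMP2 fell from 10.5 ± 0.379 to 3.61 ± 0.210 FPKM (log2 fold change -1.32, adjusted p = 0.0011). EEF1E1 fell from 1.27 ± 0.268 to 0.350 ± 0.221 FPKM (-0.76, adjusted p = 0.0187), a call lost without hypoxia library 1 (0.0574) and without normoxia library 1 (0.0807), 2 (0.0626) or 3 (0.0572). AIMP1 had 4.06 ± 0.730 and 3.72 ± 1.13 FPKM (-0.12, adjusted p = 0.755). In the amidotransferase that makes mitochondrial glutaminyl-tRNA, QRSL1 fell from 5.90 ± 1.15 to 1.28 ± 0.862 FPKM (-1.65, adjusted p = 0.00703). GATC, another subunit, had 15.1 ± 1.03 and 10.5 ± 1.80 FPKM (-0.49, adjusted p = 0.0713).

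Among factors that edit or mature tRNA, ELAC2, the endonuclease that trims the 3′ end of tRNA precursors, fell from 13.2 ± 1.90 to 3.23 ± 0.485 FPKM (-1.74, adjusted p = 0.000867). PUSL1, a pseudouridine synthase family member, was the 1 gene of the list that rose, from 0.578 ± 0.142 to 5.30 ± 0.215 FPKM (2.00, adjusted p = 0.000411). The calls of AIMP2, QRSL1, ELAC2 and PUSL1 held without each library in turn and after scaling. AARSD1, an alanyl-tRNA editing protein, fell by 0.78 (adjusted p = 0.0109), which was lost after scaling (0.227) and without normoxia library 2 (0.0662) or 3 (0.053). HSD17B10, a subunit of mitochondrial RNase P, fell by 0.64 (adjusted p = 0.0394), a call lost after scaling (0.484) and without any 1 of hypoxia library 1 (0.121), hypoxia library 2 (0.0674), or normoxia library 1 (0.0871), 2 (0.145) or 3 (0.136).

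A list of 15 genes of the amino acid and integrated stress response was read beside the synthetases, again chosen with earlier results known. Of these, 10 fell and 2 rose, against 21.1% and 5.4% of all genes tested, and the median log2 fold change was -0.82. After median-ratio scaling 6 were lower and 2 higher, against 8.07% and 6.64%, and the median was -0.51. ATF4 itself had 307, 302 and 300 FPKM in normoxia and 204, 192 and 127 in hypoxia. The conditions did not overlap, and library 3 was again the lowest. ATF4 fell by 0.82 (SE 0.2, adjusted p = 0.0215), a call lost after scaling (-0.51, adjusted p = 0.0987) and without normoxia library 1 (0.0812), 2 (0.0886) or 3 (0.0739). ASNS, the asparagine synthetase and a well-known ATF4 target, fell from 130 ± 5.08 to 32.3 ± 7.58 FPKM (-2.01, adjusted p = 0.000929). PSAT1 and PHGDH, enzymes of serine synthesis, fell by 2.44 (adjusted p = 0.00151) and 1.62 (adjusted p = 0.00162). DDIT4, an inhibitor of mTORC1 that is also induced by hypoxia-inducible factors, rose from 22.4 ± 1.35 to 361 ± 99.2 FPKM (3.92, adjusted p = 0.000143). PPP1R15A, the other gene of the list that rose, went from 31.8 ± 4.99 to 53.6 ± 9.51 FPKM (0.73, adjusted p = 0.0283). Its adjusted p was 0.0425 after scaling and as high as 0.102 with 1 library left out. DDIT3, whose gene overlaps MARS1, had 7.70 ± 0.677 and 8.38 ± 1.04 FPKM (0.11, adjusted p = 0.673). RNA levels of ATF4 do not measure its protein, which is controlled largely by translation.

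The m6A peaks of the synthetase transcripts were read from the authors' deposited lists, 1 per condition, in which each peak has a log2 enrichment of IP over input but no value per replicate. The enrichments are the authors' values and describe peaks within a list. Of the 34 genes, 29 had a peak in the normoxia list and 26 in the hypoxia list. Over the 32 tested genes this was 27 and 24, against 85.8% and 79.8% of all genes tested. All 26 genes with a hypoxia peak also had one in normoxia. IARS1, TARS1 and FARS2 had a peak in normoxia alone, where 9.89% of all tested genes with a normoxia peak had none in hypoxia. The FARS2 peak had an authors' adjusted p of 0.0575. QARS1, RARS1, VARS1, RARS2 and SARS2 had a peak in neither list.

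The cytosolic genes had 36 peaks in the normoxia list and 21 in the hypoxia list, and the mitochondrial genes 25 and 23. Over all genes the lists hold 25346 and 24444 peaks. Fewer peaks in hypoxia than in normoxia were listed for 9 of 18 cytosolic genes (CARS1, EPRS1, HARS1, IARS1, LARS1, MARS1, NARS1, SARS1 and TARS1), where 29.3% of all genes tested had fewer and 20.6% more. Of the other cytosolic genes 1 had more and 8 an equal number, and of the 16 mitochondrial genes 4 had fewer, 2 more and 10 an equal number. LARS1 and NARS1 had fewer peaks without a called RNA difference, and AARS1, GARS1, WARS1 and YARS1, whose RNA fell, had equal numbers. Peaks were counted by the gene they are listed under. HARS1 went from 3 to 1, but the hypoxia list holds a peak overlapping its exonic normoxia peak that is not listed under HARS1. Its 3′ UTR normoxia peak reached past the annotated gene end, at an authors' adjusted p of 0.0912. DND1 overlaps HARS1 over 1328 bases on the same strand. CARS1 went from 5 peaks to 1 and EPRS1 from 5 to 3, while FARSA went from 1 to 2. The normoxia peak of CARS1 that overlapped its hypoxia peak had an authors' adjusted p of 3.16e-79. Its 5′ UTR peak had 0.0525 and its remaining peaks 0.002 to 0.0295. Both FARSA peaks of the hypoxia list lie within its 1 normoxia peak, and 1 of them had an authors' adjusted p of 0.142. Whether RNA level bears on how many peaks were listed was not tested. Of the 61 normoxia peaks, 41 overlapped a hypoxia peak of the same gene by at least 1 base, as did 72.4% of all normoxia peaks.

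**Figure D5:**
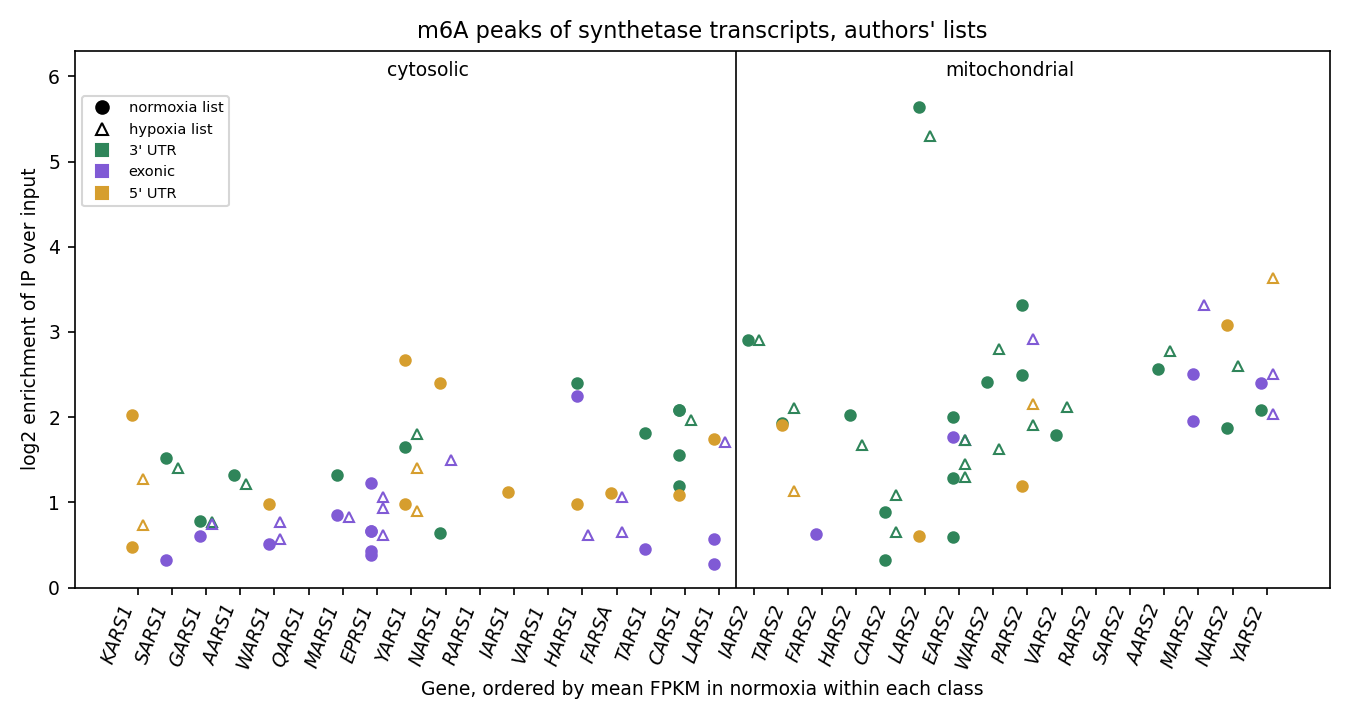
Log2 enrichment of IP over input for each m6A peak of the 34 synthetase genes in the authors' normoxia list (61 peaks, filled circles) and hypoxia list (44 peaks, open triangles), coloured by annotated region, with genes ordered by normoxia FPKM within each class. The 3′ UTR peaks of LARS2, at 5.64 and 5.30, stand above all others, and most cytosolic peaks lie below 2.

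Peaks of the mitochondrial genes were more often annotated to the 3′ UTR than those of the cytosolic genes. In normoxia the 3′ UTR held 64.0% of 25 mitochondrial and 33.3% of 36 cytosolic peaks, against 45.8% of the whole list. In hypoxia it held 65.2% of 23 and 23.8% of 21, against 43.7%. Exonic peaks made up 57.1% of the cytosolic peaks in hypoxia, with EPRS1 and FARSA giving several of them. Some of these overlapped a normoxia peak with another label. Those of FARSA, HARS1 and NARS1 and 1 of WARS1 overlapped 5′ UTR peaks, and that of MARS1 overlapped a 3′ UTR peak. A share can thus differ between the lists without a peak lying elsewhere. Peaks of 1 gene share its RNA, so these shares were not tested.

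The median log2 enrichment was 1.09 over cytosolic and 1.96 over mitochondrial peaks in normoxia, and 0.93 and 2.11 in hypoxia, against 2.08 and 2.27 over the whole lists. Peaks of all genes within the FPKM range of the tested cytosolic members had medians of 1.66 in normoxia and 2.02 in hypoxia. Within the range of the tested mitochondrial members the medians were 1.88 and 2.14. The part of RNA level in these enrichments was not tested. Some enrichment values recur exactly in the lists, and 9 normoxia and 3 hypoxia peaks of these genes carried one of the 10 most frequent values of their list.

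LARS2 had the most enriched peak of all synthetases. It spans chr13:28686702-28691670 on the + strand in normoxia, is annotated to the 3′ UTR and ends 657 bases before the end of the gene. Its log2 enrichment was 5.64, exceeded by 99 of the 25346 normoxia peaks (0.391%), and the matching hypoxia peak had 5.30, exceeded by 155 of 24444 (0.634%). The next highest were YARS2 in hypoxia, with 3.63 at 0.325 FPKM of RNA, and PARS2 in normoxia, with 3.32. IARS2 had 3′ UTR peaks of 2.91 and 2.90 in the 2 lists. The part of RAB3GAP2, which overlaps IARS2 on the opposite strand and had 16.8 and 15.9 FPKM, in these peaks was not tested. MARS2, a short gene whose peaks are annotated as exonic, had 2.50 and 1.96 in normoxia and 3.32 in hypoxia.

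Differential peaks are listed by the authors where their unadjusted p-value was under 0.05, and the authors' deposited table held 8 peaks of 7 synthetase genes. Of all genes with a peak in either list, 8.76% had a differential peak. Of the 8, 5 had lower and 3 higher m6A in hypoxia, and the authors' adjusted p-value was under 0.05 for peaks of 3 genes. The distal 3′ UTR peak of PARS2 (chr6:157594487-157595112, + strand) had a log2 difference of -0.70 (authors' adjusted p = 0.0186), with listed enrichments of 2.50 in normoxia and 1.90 in hypoxia. The 3′ UTR peak of LARS2 (chr13:28686672-28691640) had -0.60 (authors' adjusted p = 0.0316). The exonic peak of HARS1 (chr2:142387541-142388669, - strand) had 0.26 (authors' adjusted p = 0.0282), higher in hypoxia. Among peaks listed under HARS1, only a normoxia peak overlapped it. Over all genes 0 positive differential peaks overlapped the normoxia list alone, so the hypoxia list also holds an overlapping peak, but not under HARS1.

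The other differential peaks did not pass the authors' adjusted threshold. A second PARS2 peak had -0.32 (adjusted p = 0.123), AARS2 had -0.69 (0.123), SARS1 had -0.17 (0.24), EARS2 had 0.68 (0.296) and YARS2 had 1.44 (0.246), all in the authors' deposited table. For AARS2 the listed enrichments run the other way, 2.57 in normoxia and 2.78 in hypoxia. Of these genes RNA fell for HARS1, SARS1, LARS2 and AARS2, whose m6A differences were 0.26, -0.17, -0.60 and -0.69. PARS2 RNA did not pass the test (4.12 and 3.54 FPKM), so that among these few genes a lower m6A value was listed both with and without a called RNA difference.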

How the data were processed

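MeRIP-seq input and IP libraries were made from 3 normoxia and 3 hypoxia replicates of porcine granulosa cells. The authors deposited FPKM per gene for the 6 input libraries, per the file headers, and, in a second table, their own log2 fold change with its p-value and q-value. The deposited peak tables give a log2 enrichment or log2 difference, with p-value and adjusted p-value, per the file headers, for each condition as a whole. The submitters' processing notes name HOMER 4.10, edgeR 4.1, StringTie 2.1.2, HISAT2 2.0.4, FastQC and fastp 0.19.4, and the build Sscrofa11.1. No source used here says which of them produced each table, how replicates entered the peak lists, or whether counting used strand.

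FPKM hold no counts. Of 1150 low genes searched for the steps of whole reads, 3 shared the most frequent ratio between libraries, so depth is unknown and no counting interval is given. Genes that reached 1 FPKM in 3 or more of the 6 input libraries were compared with limma 3.58.1 in R 4.3.3 on log2(FPKM + 1), with a variance trend and robust estimation, Benjamini-Hochberg adjustment over all 10196 genes tested, and a two-sided threshold of 0.05. Alternatives were median-ratio scaling, a pseudocount of 0.1, no filter, a minimum of 5 FPKM, limma with neither option, a replicate block, and leaving out each library.

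Peak starts are given counted from 1, which is 1 more than deposited, since 3369 normoxia peaks begin 1 base before their gene's start and 0 at it. Positive differential values were read as higher in hypoxia: of 519 positive peaks 84 overlapped the hypoxia list alone and 0 the normoxia list alone, and of 687 negative peaks 0 and 119. Peak lists were compared by overlap of at least 1 base.

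Every member in the table is named. FPKM per library are given for members past the threshold and for those of each class with the smallest change, and other members by mean and SD. Genes of the accessory and stress lists were named as examples, some after their values were seen, and their alternatives were added after seeing the data, as were the per-library values of IARS2. The members and lists were chosen with earlier results of these data known. Some genes of the accessory list are not reported here.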

Additional observations from a re-analysis of the deposited data

How the results depend on the processing

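Of the 20 synthetases called lower, 11 kept their call without each library in turn (AARS1, CARS1, FARSA, MARS1, SARS1, VARS1, WARS1, YARS1, FARS2, TARS2 and VARS2), and all of these except TARS2 kept it under every alternative in which they were tested; VARS2 was too low for the minimum of 5 FPKM. No alternative called a synthetase higher. The cytosolic count of 13 lower was 11 after median-ratio scaling and with no filter, 14 with the replicate block, and 8 to 13 without 1 library. The mitochondrial count of 7 lower was 3 after median-ratio scaling, 5 with a pseudocount of 0.1 or no filter, and 3 to 10 without 1 library. With a minimum of 5 FPKM 8 mitochondrial genes were tested and 5 were lower; AARS2, MARS2 and VARS2 were not tested there and IARS2 passed (adjusted p = 0.0488). The count over all genes, 2699, was 1500 after median-ratio scaling and 1132 to 4329 without 1 library. Genes that had not passed changed sign as follows: after median-ratio scaling KARS1 was 0.30, NARS1 0.026, PARS2 0.078 and WARS2 0.23; without hypoxia replicate 3 RARS2 was 0.15 and SARS2 -0.10. Without 1 library KARS1 ran from -0.11 to 0.11 (0.03 without normoxia replicate 1), NARS1 from -0.62 to 0.22, RARS2 from -0.46 to 0.15, SARS2 from -0.10 to 0.22 and WARS2 from -0.13 to 0.18 (0.01 without normoxia replicate 1), each with its highest value, for SARS2 its lowest, without hypoxia replicate 3. The cause of these changes was not tested. At an authors' adjusted p under 0.05, 3 rather than 7 genes had a differential peak, 28 rather than 29 a normoxia peak and 26, as before, a hypoxia peak; under the stricter overlap, a 0.5 share of the shorter peak, 39 rather than 41 normoxia peaks were shared.

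Same-numbered replicates deviated from their group means with correlations of 0.586, 0.0398 and 0.697, so the numbers were not taken to pair the samples, and normoxia 1 correlated best with hypoxia 2 (0.641). With the replicate block 3463 genes passed, and of the synthetases LARS1 (adjusted p = 0.0448) and IARS2 (0.0187) were gained and AARS2 (0.0578) lost. Unknown depth limits what can be said of genes near 1 FPKM, such as MARS2, and of NARS2 and YARS2, which were not tested.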
